A study of Mus musculus with 25 samples.

Results

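A set of 10 genes that encode plasma proteins of the positive acute phase response was followed across hepatocytes sorted from mouse liver: Itih3, Itih4, Orm1, Orm2, Orm3, Apcs, Crp, Lbp, Fgl1 and Hp. They were chosen by gene symbol and are 10 of the 18668 genes of the hepatocyte count table. All 10 passed the filter on low counts. The title of the series names hepatocyte reprogramming after injury and the IL-6, gp130 and STAT3 axis, and the comparisons ask how the genes respond to IL-6 and to an injuring diet, with and without hepatocyte Stat3.

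The hepatocyte table held 13 libraries of bulk RNA sequencing in 5 groups, from mice of the strain given as C57BL/6J 129SV. IL-6 STAT3KO hepatocytes (n = 3) came from Stat3_floxed mice given AAV-TBG-Cre for 2 weeks and, by hydrodynamic tail vein injection (HTVi), an IL6 plasmid for 1 week. IL-6 hepatocytes (n = 3) came from WT mice 1 week after HTVi of the IL6 plasmid, and their labels name no viral vector. DDC STAT3KO hepatocytes (n = 3) came from Stat3_floxed mice that had AAV-TBG-Cre for 2 weeks and the DDC diet for 1 week. DDC hepatocytes (n = 2) came from Stat3_floxed mice that had AAV-TBG-GFP for 2 weeks and the DDC diet for 1 week. GFP hepatocytes (n = 2) came from WT mice 1 week after HTVi of a GFP plasmid. A second table held 12 immune cell libraries from livers of WT mice, 2 in each of 6 groups: neutrophils, T cells, macrophages, Ly6C-high monocytes and Ly6C-low monocytes after 1 week of DDC diet, and macrophages on normal diet.

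AAV-TBG vectors carry a hepatocyte promoter, so Cre acts in hepatocytes and leaves Stat3 in other liver cells. HTVi forces plasmid DNA into the liver, and DDC is a feed additive that blocks haem synthesis and injures the bile ducts. The IL-6 STAT3KO and IL-6 groups also differed in vector and in floxed genotype, and the DDC groups differed from GFP in vector, genotype and injection, and these parts of each difference cannot be told apart. The labels give neither age nor sex and do not state whether each library is a different animal, and p-values therefore measure only the spread between these samples, which may be technical.

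In the acute phase response, the liver changes its output of plasma proteins within hours of inflammation, and proteins that increase are called positive. IL-6 binds its receptor with gp130, which activates the transcription factor STAT3, and STAT3 acts on many of these genes together with factors of the C/EBP family and the glucocorticoid receptor. Haptoglobin (Hp) binds free haemoglobin, and the orosomucoids (Orm1, Orm2, Orm3) are glycoproteins that carry small lipophilic molecules. Apcs (serum amyloid P component) and Crp (C-reactive protein) are pentraxins that bind microbes and cell debris, Lbp hands bacterial lipopolysaccharide to CD14, Itih3 and Itih4 are inter-alpha-trypsin inhibitor heavy chains, and Fgl1 is a fibrinogen-like protein secreted by hepatocytes. In mice Apcs is the classical acute phase pentraxin, whereas in humans it is CRP.

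The members lie in few places of the genome (GRCm38). Itih4 (14:30886476-30902353, plus strand) and Itih3 (14:30908572-30923760, minus strand) are neighbours, and so are Orm1 (4:63344560-63348163), Orm3 (4:63356162-63359511) and Orm2 (4:63362449-63365878), all on the plus strand. Crp (1:172698055-172833031, plus strand) and Apcs (1:172893961-172895041, minus strand) share a stretch of chromosome 1, and Crp overlaps the gene model Gm38051 on the same strand. Fgl1 (8:41191434-41215156) and Hp (8:109575128-109579172) lie on the minus strand of chromosome 8, and Lbp (2:158306493-158332852) lies on the plus strand of chromosome 2. The 3 Orm genes are near copies, and the coding sequence of Orm1 was 89.9% identical to that of Orm2 and 86.5% to that of Orm3, while Orm2 and Orm3 were 88.4% identical. The stretch below starts at coding base 138 of Orm1 and Orm2 and at base 135 of Orm3 and is shown because reads must tell these genes apart, with capitals at the 25 of 60 positions where the 3 sequences are not all the same.
Orm1: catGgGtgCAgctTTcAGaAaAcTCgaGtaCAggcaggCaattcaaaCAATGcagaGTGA
Orm2: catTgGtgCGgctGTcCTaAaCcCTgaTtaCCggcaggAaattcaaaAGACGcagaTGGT
Orm3: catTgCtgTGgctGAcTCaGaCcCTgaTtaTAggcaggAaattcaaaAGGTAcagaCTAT
Of all 50-base stretches of the Orm transcripts, 79.6% of those of Orm1, 78.2% of those of Orm2 and 96.4% of those of Orm3 occurred in none of the other two. Over 100 bases these shares were 93.0% for both Orm1 and Orm2, and no stretch of Orm3 was shared. The split of reads among the 3 genes is uncertain to the extent that short reads fall in shared stretches, and the read length is not given in the sources used here.

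RefSeq promoter windows (GRCm38.p6, from 250 bases before to 50 bases after the start site) were matched for 6 of the 10 members: Itih3, Itih4, Orm2, Orm3, Apcs and Crp. Windows of 5 genes are shown, 5′ to 3′ on the gene's strand, with every motif match in capitals: Itih4 and Apcs because their windows hold a STAT motif, Orm2 and Orm3 because they are close copies whose genes responded to different extents, and Crp because its gene changed least.
Itih4, chr14:30886226-30886525, plus strand: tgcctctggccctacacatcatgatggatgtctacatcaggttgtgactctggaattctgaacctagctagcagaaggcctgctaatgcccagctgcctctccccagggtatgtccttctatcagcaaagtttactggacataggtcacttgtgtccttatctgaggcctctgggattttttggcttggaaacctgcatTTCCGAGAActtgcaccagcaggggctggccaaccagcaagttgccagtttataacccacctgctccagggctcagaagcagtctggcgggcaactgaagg
Apcs, chr1:172895005-172895304, minus strand: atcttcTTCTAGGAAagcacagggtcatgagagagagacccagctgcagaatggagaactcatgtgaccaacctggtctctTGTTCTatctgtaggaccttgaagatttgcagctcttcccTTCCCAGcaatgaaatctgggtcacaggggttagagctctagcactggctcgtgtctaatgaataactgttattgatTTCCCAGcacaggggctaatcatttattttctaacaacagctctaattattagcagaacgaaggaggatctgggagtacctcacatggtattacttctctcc
Orm2, chr4:63362199-63362498, plus strand: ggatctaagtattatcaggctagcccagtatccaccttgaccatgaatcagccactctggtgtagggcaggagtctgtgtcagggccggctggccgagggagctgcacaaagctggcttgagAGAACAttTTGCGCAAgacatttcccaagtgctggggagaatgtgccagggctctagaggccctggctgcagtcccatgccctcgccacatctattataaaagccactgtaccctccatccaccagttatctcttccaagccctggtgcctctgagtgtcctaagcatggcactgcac
Orm3, chr4:63355908-63356207, plus strand: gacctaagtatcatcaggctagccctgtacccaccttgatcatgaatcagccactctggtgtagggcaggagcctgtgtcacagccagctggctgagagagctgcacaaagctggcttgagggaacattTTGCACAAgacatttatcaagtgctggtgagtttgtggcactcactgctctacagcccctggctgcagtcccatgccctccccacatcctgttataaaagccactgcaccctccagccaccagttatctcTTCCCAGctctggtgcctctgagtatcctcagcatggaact
Crp, chr1:172697806-172698105, plus strand: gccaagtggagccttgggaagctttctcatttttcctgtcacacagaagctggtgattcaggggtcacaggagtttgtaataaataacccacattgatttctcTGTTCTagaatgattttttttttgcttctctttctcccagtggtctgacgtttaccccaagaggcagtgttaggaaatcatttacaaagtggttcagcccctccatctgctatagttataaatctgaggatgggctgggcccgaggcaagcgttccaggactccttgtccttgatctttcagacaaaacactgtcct
Both strands were searched for the STAT motif TTCNNNGAA, its wider form with 4 free bases in place of 3, the sequence CTGGGAA known as an IL-6 response element of rat acute phase genes, the C/EBP motif TTGCNNAA and the glucocorticoid receptor motif TGTTCT. No pair of these matches overlapped in the members' windows. Positions count from the start site as +1 and give the leftmost base of the match. TTCNNNGAA occurred at -51 in Itih4 and at -244 in Apcs, and in 8.3% of 32851 RefSeq windows of the same length. CTGGGAA occurred at -129 and -52 in Apcs and at +10 in Orm3, each time as its reverse complement TTCCCAG, and in 11.1% of all windows. TTGCNNAA occurred at -120 in Orm2 and at -121 in Orm3, and in 10.8% of all windows. TGTTCT occurred at -128 in Orm2, as its reverse complement, at -169 in Apcs and at -147 in Crp, and in 19.0% of all windows. The wider STAT form occurred in none of the 6 windows and in 7.0% of all windows, and the Itih3 window held none of the 5 motifs. The Orm2 and Orm3 windows were identical at 89.2% of 295 aligned bases.

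**Figure D1:**
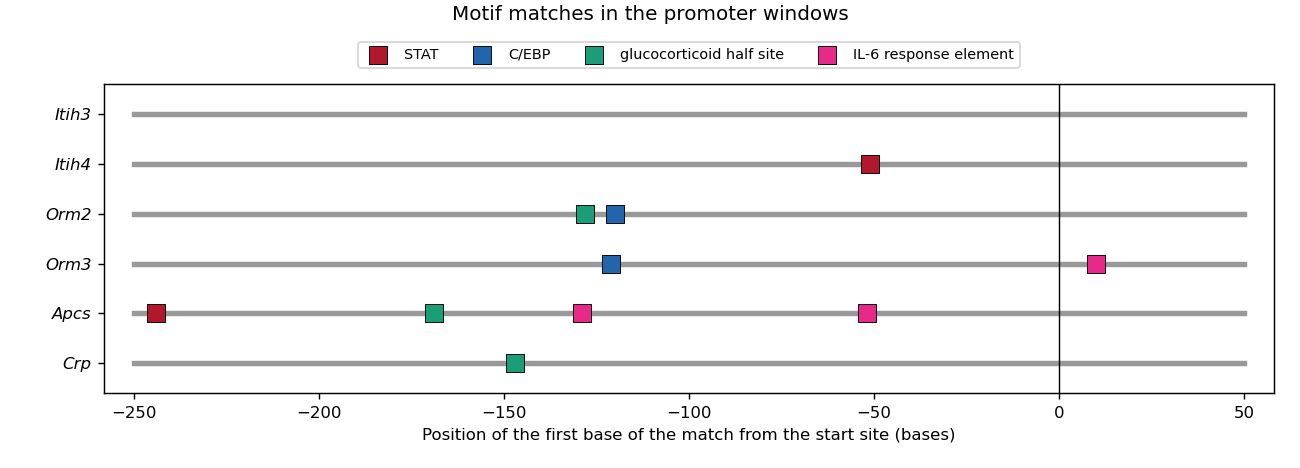
Positions of the 5 motifs searched in the promoter windows of the 6 members with a RefSeq entry, in bases from the start site, 1 row a gene; each mark is a match on either strand. Apcs holds 4 matches, Orm2 and Orm3 hold 2 each, Itih4 and Crp hold 1 each and Itih3 holds none.

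The hepatocyte libraries held 13625040 to 18428988 counts. The defining hepatocyte markers were high in all 13 libraries, with a summed level of 58510 to 170600 CPM, which are counts scaled to a common library size with TMM. That sum, lowest in replicate 3 of IL-6, includes the acute phase gene Fgb. In replicates 1, 2 and 3 of IL-6 Fgb alone was at 40340, 32070 and 33140 CPM, against 4255 and 3620 CPM in GFP libraries. T cell markers summed to at most 0.493 CPM. Stat3, the deleted gene, was at 116, 96.0 and 116 CPM in IL-6 STAT3KO libraries, against 340, 351 and 424 CPM in IL-6 libraries. GFP libraries had 109 and 98.9 CPM, so the IL-6 STAT3KO libraries stood at about the GFP level, with a log2 fold change of 0.07 ± 0.23 (edgeR adjusted p = 0.903). Stat3 was itself higher in IL-6 relative to GFP, at 1.84 ± 0.24 (edgeR adjusted p = 0.000281), and its level in the IL-6 STAT3KO libraries does not show the deletion on its own. Under DDC it was at 62.1, 56.3 and 87.3 CPM in DDC STAT3KO libraries, against 150 and 112 CPM in DDC libraries. Whole-gene counts do not resolve the deleted exons, and transcript left after Cre would still be counted. Il6, carried by the plasmid, was at 0.743, 0.559 and 1.05 CPM in IL-6 STAT3KO libraries, at 4.90, 3.21 and 351 CPM with Stat3 intact and at 0 and 0.0688 CPM after the GFP plasmid. Replicate 3 of IL-6 thus stands apart in Il6, and it also had 7795 counts of the EGFP transgene, where replicates 1 and 2 had 117 and 93. Replicate 3 of DDC STAT3KO also stands apart, with Kupffer cell markers at a sum of 40.3 CPM, against 255 and 309 CPM in the other libraries of its group, and cholangiocyte markers at 6.44 CPM, against 258 and 241 CPM. Replicate 1 of DDC STAT3KO differed in its mitochondrial share, at 2.03% of counts, against 5.38% and 5.26% in replicates 2 and 3.

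Together the 10 genes took 8.001%, 8.686% and 9.332% of all counts in IL-6 hepatocytes, and 0.582% to 1.30% in the other 10 hepatocyte libraries. Levels of each gene in each library are plotted below and given by role in the text.

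**Figure D2:**
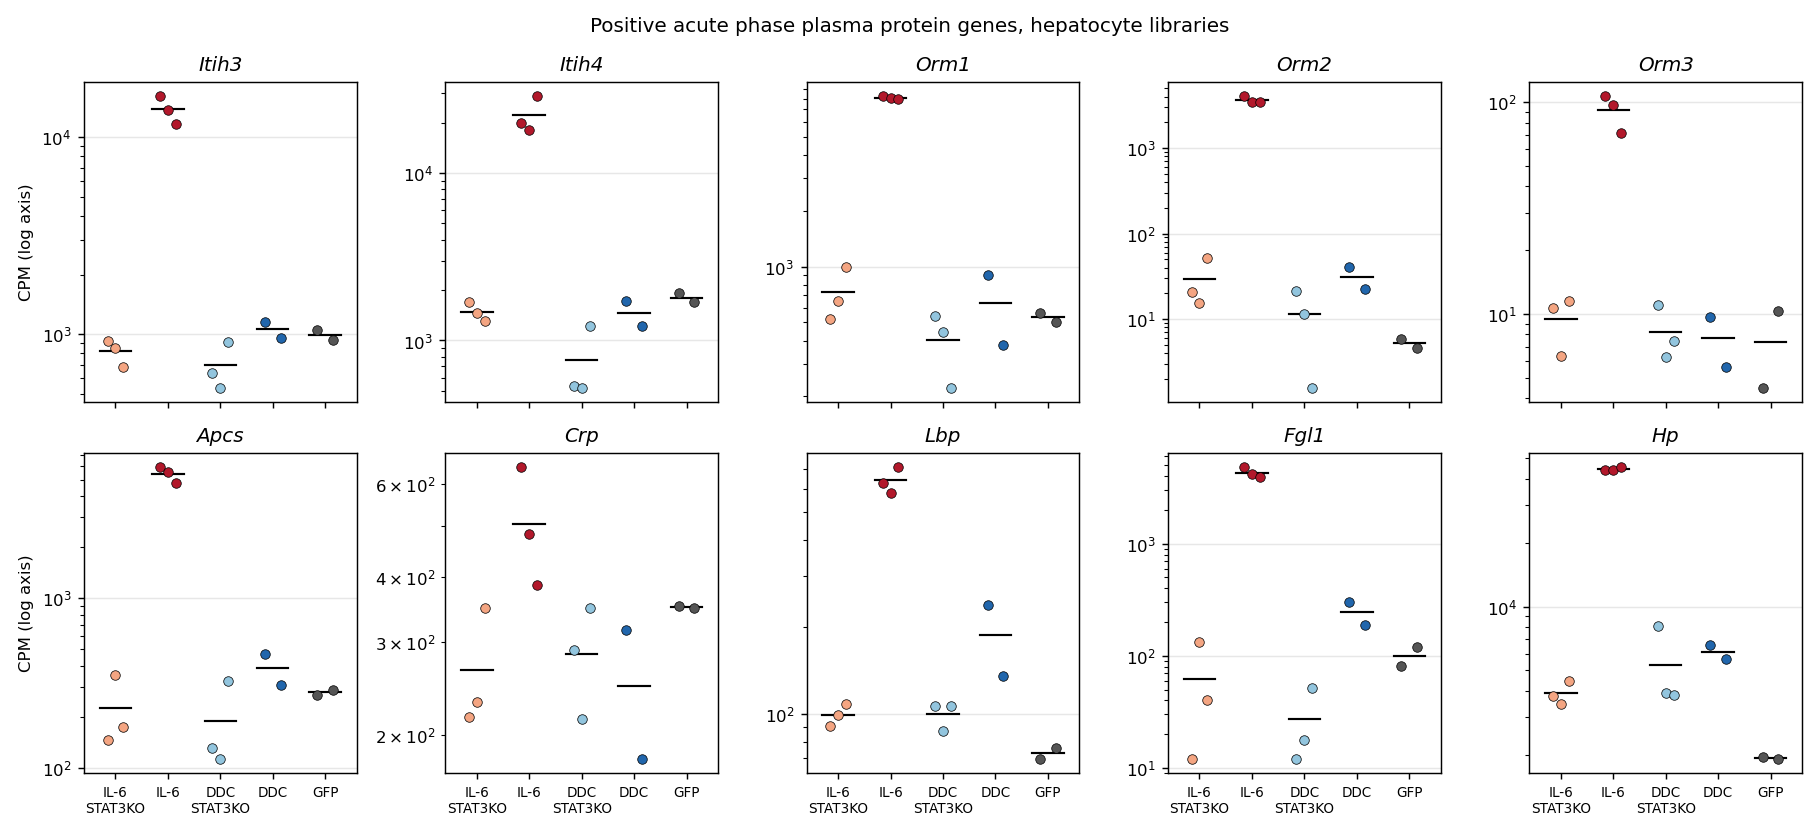
Level of each of the 10 genes in every hepatocyte library, in CPM on a log axis, 1 panel a gene; points are libraries and lines are group means. In 9 panels the 3 IL-6 libraries stand far above the other 10 libraries, while for Crp they stand at 386 to 646 CPM with the other groups between 180 and 352 CPM.

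The IL-6 plasmid raised 9 of the 10 genes above the GFP plasmid. The change ran from a log2 fold change of 3.14 for Lbp to 9.46 for Orm2, and Crp did not pass the test. Over all 14339 genes tested, 13.7% were called higher in this comparison, at an edgeR Benjamini-Hochberg adjusted p under 0.05. The median log2 fold change was 3.86 over the 10 genes and 0.04 over all genes tested. In all 10 genes every IL-6 library lay above both GFP libraries, as did 31.5% of all genes tested.

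IL-6 STAT3KO hepatocytes, also given the IL6 plasmid, had lower levels of every member than IL-6 hepatocytes. The groups differed in vector and floxed genotype too, which cannot be told apart from the deletion. Il6, carried by the plasmid, was at 0.743, 0.559 and 1.05 CPM in IL-6 STAT3KO libraries and at 4.90, 3.21 and 351 CPM in IL-6 libraries. The part of this lower Il6 level in the results was not tested. All 10 genes fell in IL-6 STAT3KO relative to IL-6 hepatocytes, and 13.4% of all genes tested did. The median log2 fold change was -3.71 over the 10 genes and 0.00 over all genes tested. Each of the 10 genes had its 3 IL-6 STAT3KO libraries below the 3 IL-6 libraries, as had 22.9% of all genes tested. Counts for both comparisons were the same with replicate 3 of IL-6 left out, with 9 genes higher in IL-6 and 10 lower in IL-6 STAT3KO. The 10 hepatocyte markers summed to 98320 to 167700 CPM in IL-6 STAT3KO libraries and to 58510 to 170600 CPM in IL-6 libraries. That sum includes Fgb, which itself fell in IL-6 STAT3KO relative to IL-6. Whether a different share of hepatocytes had a part in the lower levels was not tested, and bulk samples do not give RNA per hepatocyte.
Other measures moved with the IL-6 group as well. Mitochondrial genes took 4.16% to 5.92% of counts in IL-6 STAT3KO libraries, 2.05% to 2.76% in IL-6 libraries and 5.56% and 5.6% in GFP libraries. The cholangiocyte marker list summed to 6.87 to 48.9 CPM in IL-6 STAT3KO libraries, to 2205 to 10750 CPM in IL-6 libraries and to 4.67 and 5.57 CPM in GFP libraries, most of it Spp1. In IL-6 relative to GFP, Spp1 was higher at 11.32 ± 2.06 (edgeR adjusted p = 0.00214) and Sox9 at 5.13 ± 0.55 (edgeR adjusted p = 8.17e-05). Epcam was also called higher, at 7.61 ± 1.95 (edgeR adjusted p = 0.0196), though at most at 1.82 CPM. Krt7 was at most at 0.123 CPM. Kupffer cell markers summed to 90.2 to 203 CPM in IL-6 STAT3KO libraries, to 50.7 to 123 CPM in IL-6 libraries and to 21.1 and 26.4 CPM in GFP libraries. The part of these measures in the results was not tested.

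Haptoglobin, the haemoglobin scavenger, had the highest level of the 10 genes per length of exon. Hp stood at 3779, 3479 and 4456 CPM in IL-6 STAT3KO libraries, at 44068, 44321 and 45308 CPM in IL-6 libraries, beside 1946 and 1916 CPM in GFP libraries. The IL-6 libraries lay within a narrow band, and the IL-6 STAT3KO libraries lay below them and above both GFP libraries. The mean in IL-6 was 23.1 times that in GFP, with a log2 fold change of 4.53 ± 0.43 (edgeR adjusted p = 3.98e-05). IL-6 STAT3KO against IL-6 gave -3.51 ± 0.34 (edgeR adjusted p = 2.75e-05).
Neutrophils also make haptoglobin, and 7 neutrophil markers summed to 0.186 to 1.34 CPM in IL-6 STAT3KO libraries, to 0.998 to 13.7 CPM in IL-6 libraries, and to 0 and 0.0640 CPM in GFP libraries. In replicates 1, 2 and 3 of IL-6 the sums were 13.7, 7.89 and 0.998 CPM, falling as the Hp levels of the same replicates, given above, rose. The part of neutrophils in the Hp difference was not tested.

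The orosomucoids spanned a wide range of levels. Orm1, the most abundant of the 3 per length, stood at 525, 656 and 994 CPM in IL-6 STAT3KO libraries, at 8225, 8015 and 7955 CPM in IL-6 libraries, beside 559.9 and 506 CPM in GFP libraries. The IL-6 libraries were close together and high, and the range of the IL-6 STAT3KO libraries enclosed one GFP library. Its log2 fold change was 3.92 ± 0.51 (edgeR adjusted p = 0.000253) in IL-6 against GFP and -3.48 ± 0.42 (edgeR adjusted p = 0.000114) in IL-6 STAT3KO against IL-6.
Orm2 stood at 20.8, 15.2 and 51.2 CPM in IL-6 STAT3KO libraries, at 4033, 3465 and 3501 CPM in IL-6 libraries, beside 5.76 and 4.61 CPM in GFP libraries. Among the members it was the gene with the lowest level in GFP per length and the largest fold in IL-6. The mean in IL-6 was 707 times that in GFP, and the log2 fold change was 9.46 ± 1.13 (edgeR adjusted p = 0.000163). IL-6 STAT3KO against IL-6 gave -6.98 ± 0.84 (edgeR adjusted p = 0.000113).
Orm3, the least abundant of the 3 per length in IL-6 hepatocytes, stood at 10.6, 6.34 and 11.5 CPM in IL-6 STAT3KO libraries, at 106, 96.9 and 71.4 CPM in IL-6 libraries, beside 4.48 and 10.3 CPM in GFP libraries. Its IL-6 libraries were high, and its IL-6 STAT3KO and GFP libraries overlapped. The log2 fold change was 3.63 ± 0.44 (edgeR adjusted p = 0.000171) in IL-6 against GFP and -3.27 ± 0.36 (edgeR adjusted p = 6.74e-05) in IL-6 STAT3KO against IL-6. Since Orm1 and Orm2 were many times more abundant there, a small share of their reads assigned to Orm3 would weigh on the Orm3 level, which was not tested. With the 3 genes summed into 1 row the log2 fold change was 4.44 in IL-6 against GFP (edgeR adjusted p = 0.000155) and -3.95 in IL-6 STAT3KO against IL-6 (edgeR adjusted p = 5.82e-05).

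Of the pentraxins, Apcs rose with the IL-6 plasmid and Crp did not pass the test. Apcs stood at 146, 353 and 174 CPM in IL-6 STAT3KO libraries, at 5901, 5521 and 4804 CPM in IL-6 libraries, beside 268 and 289 CPM in GFP libraries. The IL-6 libraries were high, and the IL-6 STAT3KO libraries lay on both sides of the GFP libraries. The mean in IL-6 was 19.4 times that in GFP, with a log2 fold change of 4.28 ± 0.57 (edgeR adjusted p = 0.00029). IL-6 STAT3KO against IL-6 gave -4.59 ± 0.48 (edgeR adjusted p = 4.49e-05).
Crp stood at 216, 231 and 348 CPM in IL-6 STAT3KO libraries, at 646, 482 and 386 CPM in IL-6 libraries, beside 352 and 348 CPM in GFP libraries. All 3 IL-6 libraries lay above both GFP libraries, yet the mean was only 1.44 times as high and the log2 fold change of 0.53 ± 0.33 did not pass (edgeR adjusted p = 0.257). Crp fell in IL-6 STAT3KO relative to IL-6, by a log2 fold change of -0.93 ± 0.29 (edgeR adjusted p = 0.0334). That call was lost in 7 of 20 other settings, at edgeR adjusted p of 0.0507 to 0.12: with library totals in place of TMM, and without replicate 1 or 2 of IL-6 STAT3KO, of IL-6 or of GFP. The coding sequences of Apcs and Crp were 59.0% identical over 671 aligned bases.

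Among the heavy chains of inter-alpha-trypsin inhibitor, Itih3 forms covalent complexes with hyaluronan through bikunin, and Itih4 lacks the bikunin attachment of its relatives. Itih3 stood at 928, 850.0 and 679 CPM in IL-6 STAT3KO libraries, at 16134, 13750.2 and 11737 CPM in IL-6 libraries, beside 1057 and 936 CPM in GFP libraries. The IL-6 STAT3KO libraries all lay below the GFP libraries as well as far below the IL-6 libraries. The log2 fold change was 3.80 ± 0.34 (edgeR adjusted p = 2.89e-05) in IL-6 against GFP and -4.08 ± 0.29 (edgeR adjusted p = 4.38e-06) in IL-6 STAT3KO against IL-6.
Itih4 stood at 1701, 1450.4 and 1314 CPM in IL-6 STAT3KO libraries, at 19802, 18094 and 28662 CPM in IL-6 libraries, beside 1909 and 1688 CPM in GFP libraries. The IL-6 libraries were high and spread, with replicate 3 highest. The log2 fold change was 3.62 ± 0.46 (edgeR adjusted p = 0.000215) in IL-6 against GFP and -3.90 ± 0.39 (edgeR adjusted p = 3.36e-05) in IL-6 STAT3KO against IL-6.

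Lbp, which presents lipopolysaccharide to CD14, stood at 90.3, 98.8 and 108 CPM in IL-6 STAT3KO libraries, at 631, 583 and 711 CPM in IL-6 libraries, beside 69.8 and 76.2 CPM in GFP libraries. The groups did not overlap, with IL-6 highest and GFP lowest. The log2 fold change was 3.14 ± 0.27 (edgeR adjusted p = 2.57e-05) in IL-6 against GFP and -2.69 ± 0.22 (edgeR adjusted p = 1.22e-05) in IL-6 STAT3KO against IL-6.
Fgl1, which is also known as a ligand of the T cell receptor LAG3, stood at 12.1, 133 and 39.9 CPM in IL-6 STAT3KO libraries, at 4780.3, 4144 and 3899.8 CPM in IL-6 libraries, beside 81.2 and 119 CPM in GFP libraries. The IL-6 STAT3KO libraries were widely spread, and 2 of the 3 lay below both GFP libraries. The mean in IL-6 was 42.8 times that in GFP, with a log2 fold change of 5.42 ± 1.00 (edgeR adjusted p = 0.00229). IL-6 STAT3KO against IL-6 gave -6.11 ± 0.86 (edgeR adjusted p = 0.000354).

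**Figure D3:**
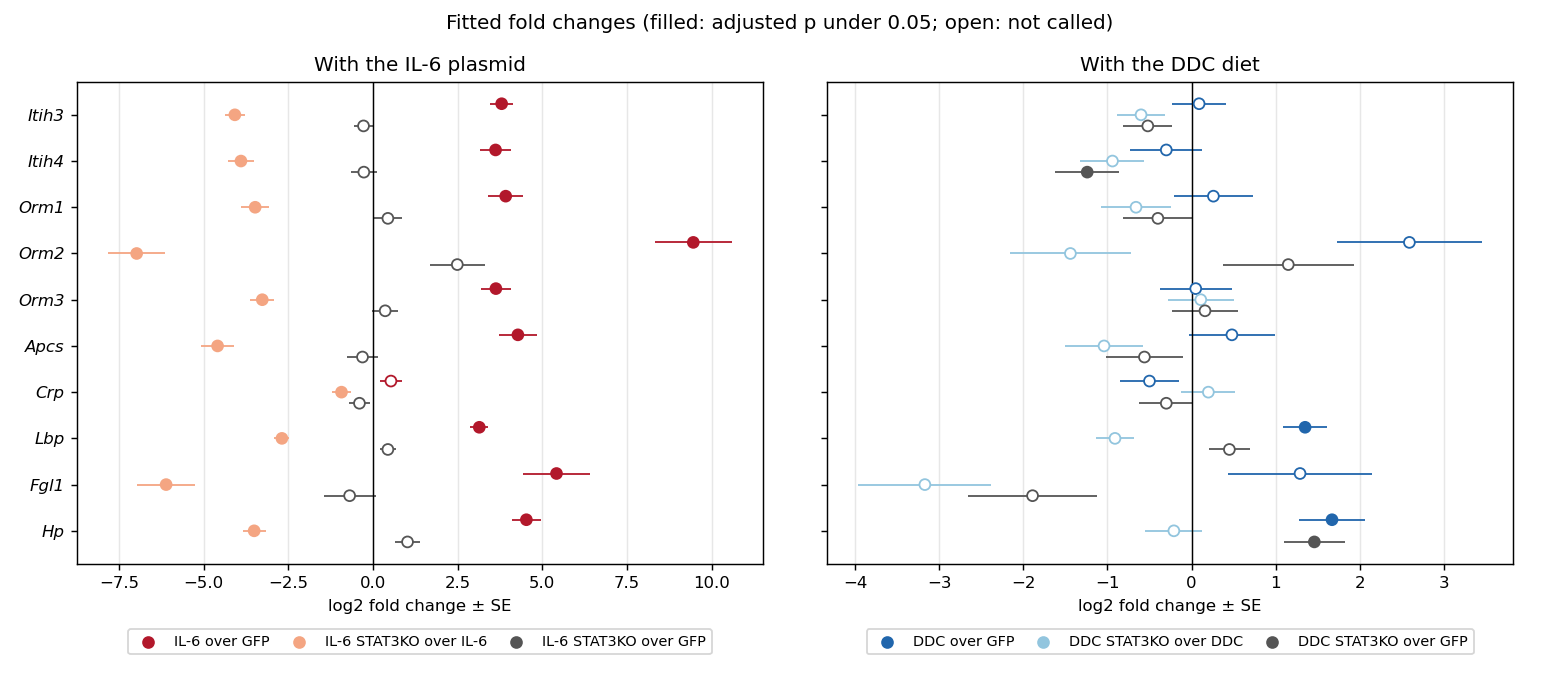
Log2 fold changes of the 10 genes with SE from the edgeR fit, the comparisons with the IL-6 plasmid on the left and those with the DDC diet on the right; filled symbols passed the adjusted p threshold and open symbols did not. IL-6 STAT3KO against IL-6 lies at -2.69 or below for 9 genes and IL-6 against GFP at 3.14 or above for 9 genes, with Crp nearest 0 in both.

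IL-6 STAT3KO and GFP hepatocytes, which differ in plasmid, vector and genotype, were also compared directly. By edgeR 0 of the 10 genes were called, where 3.12% of all genes tested were called in either direction. Orm2, at 2.49 ± 0.82 (edgeR adjusted p = 0.125), and Hp, at 1.02 ± 0.36 (edgeR adjusted p = 0.145), were the 2 genes with an unadjusted p under 0.05. DESeq2, which called 1132 of all genes, called both higher in IL-6 STAT3KO, at adjusted p of 0.0467 for Orm2 and 0.015 for Hp. So did edgeR fitted to the compared groups alone, at adjusted p of 0.0428 and 0.0303. Without replicate 3 of DDC STAT3KO, which enters through the shared spread, edgeR called Orm2 (adjusted p = 0.021). Every IL-6 STAT3KO library lay above both GFP libraries in Orm2, Lbp and Hp, as in 22.2% of all genes, and below both in Itih3, as in 22.4% of all genes. The other members ranged from -0.69 for Fgl1 (SE 0.77) to 0.44 for Lbp (SE 0.24) and Orm1 (SE 0.43) on the log2 scale.

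DDC hepatocytes with Stat3 intact had 2 of the 10 genes higher than GFP hepatocytes, where 10.4% of all genes tested were called higher. Diet, vector, genotype and injection all differ here and cannot be told apart. Lbp stood at 238 and 135 CPM in DDC libraries, against 69.8 and 76.2 CPM in GFP libraries, with a log2 fold change of 1.35 ± 0.26 (edgeR adjusted p = 0.00662). Hp stood at 6617 and 5648 CPM in DDC libraries, against 1946 and 1916 CPM in GFP libraries, with a log2 fold change of 1.67 ± 0.39 (edgeR adjusted p = 0.0141). Both DDC libraries lay above both GFP libraries in each case. With 2 libraries in each group these calls rested on all 4: without replicate 1 of DDC, or either GFP library, 0 genes were called, and without replicate 2 of DDC 1 was, Lbp.
Kupffer cell markers summed to 225 and 358 CPM in DDC libraries, against 21.1 and 26.4 CPM in GFP libraries, and their part in the differences was not tested. Neutrophil markers summed to 0.636 and 1.159 CPM in DDC libraries, against 0 and 0.0640 CPM in GFP libraries. Cholangiocyte markers summed to 519 and 569 CPM in DDC libraries, against 4.67 and 5.57 CPM in GFP libraries, monocyte and macrophage markers to 90.7 and 161 CPM, against 9.795 and 17.8 CPM, and stellate cell markers to 235 and 404 CPM, against 85.7 and 77.3 CPM. The part of these lists was not tested either.

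Orm2 stood at 40.4 and 22.3 CPM in DDC libraries, against 5.76 and 4.61 CPM in GFP libraries, and its log2 fold change of 2.59 ± 0.86 missed the threshold (edgeR adjusted p = 0.0543). It was called higher in 7 of 21 other settings, at a log2 fold change of 2.60 by DESeq2 (adjusted p = 0.0274) and of 2.59 by edgeR without replicate 3 of DDC STAT3KO (adjusted p = 0.00746). Fgl1 stood at 301 and 187 CPM in DDC libraries, against 81.2 and 119 CPM in GFP libraries, at 1.29 ± 0.86 (edgeR adjusted p = 0.308). Both genes were higher in both DDC libraries than in either GFP library. Apcs stood at 471 and 308 CPM in DDC libraries, at 0.48 ± 0.51 (edgeR adjusted p = 0.533), and also lay above GFP in both libraries. Crp stood at 316 and 179.8 CPM in DDC libraries, below both GFP libraries, at -0.50 ± 0.35 (edgeR adjusted p = 0.34). Itih3, Itih4, Orm1 and Orm3 overlapped between the groups, with log2 fold changes of 0.09, -0.30, 0.26 and 0.05. Over all genes tested, both DDC libraries lay above both GFP libraries in 36.5% of cases and below them in 34.8%, against 5 and 1 of the 10 members. The median over the 10 genes was 0.37, and over all genes tested it was 0.02.

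Set directly against DDC, IL-6 hepatocytes had 9 of the 10 genes higher, where 6.03% of all genes tested were. These groups differ in injection, vector and genotype as well as in stimulus, and these parts cannot be told apart. The median log2 fold change over the members was 3.68, and the 9 ran from 1.78 ± 0.25 for Lbp to 6.87 ± 1.01 for Orm2. Crp had a log2 fold change of 1.03 ± 0.33 (edgeR adjusted p = 0.0676) and was not called, but it was called in 3 of 20 other settings. DESeq2 called all 10 genes, with Crp at an adjusted p of 0.0164, and so did edgeR without replicate 3 of IL-6, with Crp at 1.19 and an adjusted p of 0.0465. Fgl1 was called in this comparison in 18 of 20 other settings; without replicate 1 of DDC its edgeR adjusted p was 0.0867, and without replicate 2 it was 0.139.

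Deletion of Stat3 under the DDC diet was called for 0 members and for 0 of 14339 genes by edgeR, with 4 members and 803 genes at an unadjusted p under 0.05. DESeq2 called 10 genes, none of them a member, and had 855 genes at an unadjusted p under 0.05. Fgl1 stood at 12.1, 17.6 and 51.6 CPM in DDC STAT3KO libraries, against 301 and 187 CPM in DDC libraries, with a log2 fold change of -3.17 ± 0.79 (edgeR adjusted p = 0.853) and an unadjusted p of 0.00169. All 3 DDC STAT3KO libraries lay below both DDC libraries. Lbp stood at 106, 86.8 and 106 CPM in DDC STAT3KO libraries, against 238 and 135 CPM in DDC libraries, with a log2 fold change of -0.91 ± 0.23 (edgeR adjusted p = 0.853) and an unadjusted p of 0.00216. Its groups did not overlap either.

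Itih4 stood at 538, 523 and 1223 CPM in DDC STAT3KO libraries, against 1709 and 1212 CPM in DDC libraries, with a log2 fold change of -0.94 ± 0.38 (edgeR adjusted p = 0.853). Apcs stood at 132, 113 and 323 CPM in DDC STAT3KO libraries, against 471 and 308 CPM in DDC libraries, with a log2 fold change of -1.04 ± 0.46 (edgeR adjusted p = 0.853). In both genes replicate 3 of DDC STAT3KO was the high library of its group and overlapped the DDC libraries, and the other 2 lay below them. Without replicate 3 of DDC STAT3KO the log2 fold changes were -1.46 for Itih4, -1.67 for Apcs and -4.04 for Fgl1, and 0 members were called. Orm2 stood at 21.4, 11.4 and 1.57 CPM in DDC STAT3KO libraries, against 40.4 and 22.3 CPM in DDC libraries, with replicate 3 lowest.
Itih3 stood at 637, 536 and 917 CPM in DDC STAT3KO libraries, against 1161 and 956 CPM in DDC libraries. Itih3, Orm2, Lbp and Fgl1 were the 4 members whose DDC STAT3KO libraries all lay below the DDC libraries, and 0 members had them all above, where 18.4% of all genes tested did not overlap in either direction. For Hp, Orm1, Orm3 and Crp the groups overlapped, at log2 fold changes of -0.21 ± 0.34, -0.66 ± 0.42, 0.11 ± 0.39 and 0.20 ± 0.32. The median was -0.78 over the 10 genes and 0.01 over all genes tested.

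DDC STAT3KO hepatocytes were set against GFP as well, a comparison that shares its GFP libraries with those above. Hp was higher, at 8125, 3934 and 3843 CPM in DDC STAT3KO libraries against 1946 and 1916 CPM in GFP libraries, with a log2 fold change of 1.46 ± 0.36 (edgeR adjusted p = 0.0204). Itih4 was lower, with a log2 fold change of -1.24 ± 0.38 (edgeR adjusted p = 0.0468). These were 1 of 10 members in each direction, where 8.50% of all genes tested were called higher and 7.39% lower. The Itih4 call was lost in 13 of 20 other settings and the Hp call in 3 of 20. Replicate 1 of DDC STAT3KO, the library with the low mitochondrial share, had the highest Hp level, and without it the Hp log2 fold change was 1.01 (edgeR adjusted p = 0.0389). Without replicate 3 of DDC STAT3KO 5 members were called: Hp at 1.64 and Orm2 at 1.66 higher, and Itih4 at -1.76, Apcs at -1.19 and Fgl1 at -2.75 lower. Without either GFP library 0 were called, and without any 1 of 9 other libraries 1 was. IL-6 STAT3KO against DDC STAT3KO gave 0 called members by edgeR, where 9.83% of all genes tested were called in either direction. DESeq2 called Itih4 higher in IL-6 STAT3KO there, at a log2 fold change of 0.97 and an adjusted p of 0.0264, and edgeR did so without replicate 3 of DDC STAT3KO, at 1.49 and an adjusted p of 0.00751.

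Whether the difference with Stat3 deletion itself depended on the stimulus was tested as an interaction, the difference under the IL-6 plasmid minus that under DDC. It was called below 0 for 8 of the 10 genes, where 4.08% of all genes tested were called lower. The values ran from -1.79 ± 0.32 (edgeR adjusted p = 0.00609) for Lbp to -5.54 ± 1.08 (edgeR adjusted p = 0.00906) for Orm2, with a median of -3.13 over the 10 genes. Crp, at -1.13 ± 0.44 (edgeR adjusted p = 0.139), and Fgl1, at -2.94 ± 1.08 (edgeR adjusted p = 0.12), were not called. For Fgl1 the log2 fold change with Stat3 deletion was -6.11 ± 0.86 under the IL-6 plasmid and -3.17 ± 0.79 under DDC, so of the members it had the largest shift in the DDC setting. With replicate 3 of IL-6 and of DDC STAT3KO both left out the test still called 8 members. Without replicate 2 of DDC it called 4, namely Itih3, Orm3, Lbp and Hp. The 2 arms also differ in vector and genotype of their Stat3-intact groups, which cannot be told apart from the stimulus.

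Between genes, levels were compared per kilobase of exon. In IL-6 hepatocytes the order was Hp at 27750 CPM per kb, Orm1 at 10410 CPM per kb, Itih4 at 6012 CPM per kb, Apcs at 5570 CPM per kb, Orm2 at 4730 CPM per kb, Itih3 at 3814 CPM per kb, Fgl1 at 964 CPM per kb, Crp at 147 CPM per kb, Lbp at 133 CPM per kb and Orm3 at 119 CPM per kb. Itih4 and Apcs overlapped in that order, as did Apcs and Orm2, Crp and Lbp, and Lbp and Orm3, while at the other steps the libraries of neighbouring genes did not overlap. In GFP hepatocytes Hp led at 1202 CPM per kb, and Orm1 followed at 688 CPM per kb and Itih4 at 487 CPM per kb. Crp stood at 102 CPM per kb there and Orm2 was last, at 6.69 CPM per kb, overlapping Orm3 at 9.57 CPM per kb. Orm2 thus took the tenth place in GFP and the fifth in IL-6. Hp and Orm1 led in all 5 groups. In DDC STAT3KO hepatocytes the last place was that of Fgl1, at 6.11 CPM per kb, but per kilobase of the longest coding transcript it stood at 24.2 CPM per kb and Orm3 was last, at 10.6 CPM per kb. The exon union of Fgl1 holds more than its coding transcript, which lowers its value.

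**Figure D4:**
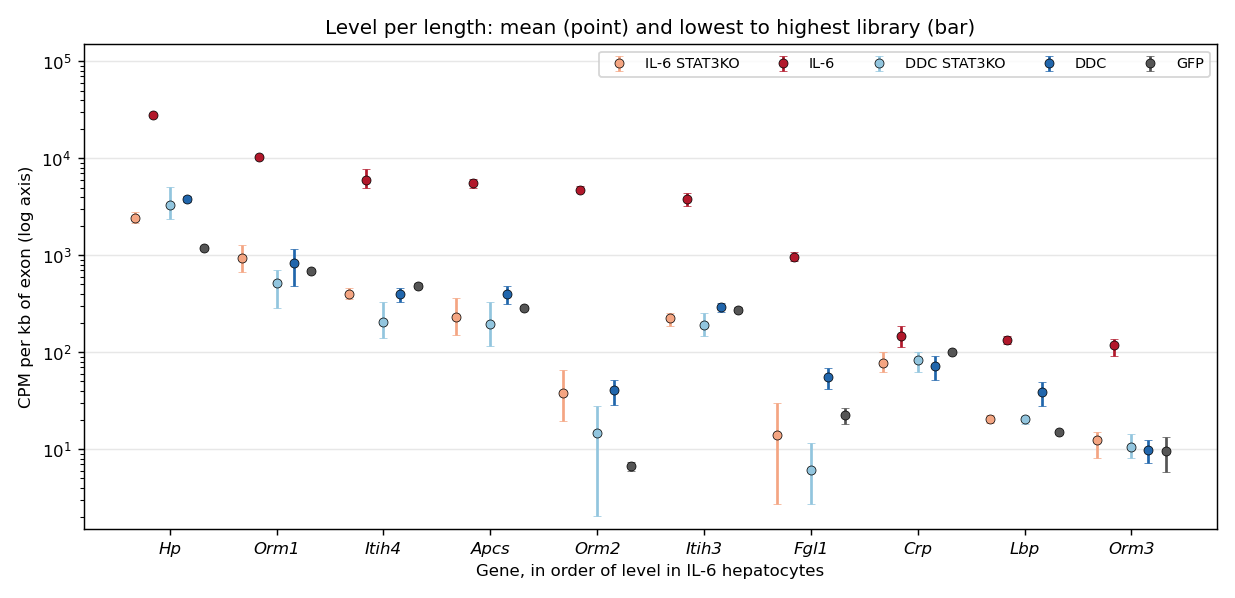
Mean level of each gene per kilobase of exon in the 5 hepatocyte groups, in CPM per kb on a log axis, with bars from the lowest to the highest library; genes are in the order of their IL-6 level. Hp and Orm1 lead in every group, and Orm2 is at 4730 CPM per kb in IL-6 and at 6.69 CPM per kb in GFP.

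Outside the IL-6 group, the members still varied between libraries, and not all in step. Over the 10 libraries of the other 4 groups, Pearson's r of log2(CPM + 1) between pairs of members ran from -0.51 to 0.93 over 45 pairs, with a median of 0.20, 10 pairs over 0.5 and 14 under 0. Apcs and Fgl1 had 0.93, Itih3 and Itih4 had 0.86, Itih3 and Apcs had 0.81, Orm1 and Orm2 had 0.77, and Lbp and Hp had 0.73. These values describe 10 libraries that share groups, and no test was made of them. The 5 other genes whose levels over all 13 libraries were most like the mean of the members, of 5661 compared, were Dnajc12, Serpina10, Fgb, Il13ra1 and Reg3b, with r of 0.985, 0.984, 0.983, 0.979 and 0.979. These r mostly set the 3 IL-6 libraries against the rest, as in Dnajc12, a co-chaperone, at 119, 127 and 87.2 CPM in IL-6 libraries and 5.16 to 9.57 CPM elsewhere. Reg3b, a secreted lectin, was at 1964, 1695 and 3218 CPM in IL-6 libraries and at most at 0.0688 CPM elsewhere.

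Other genes of the response were counted from lists. Of 21 other positive acute phase genes, 17 rose and 0 fell in IL-6 relative to GFP, with a median of 3.16. Among them were Steap4, a metalloreductase, at 4.32 ± 0.38 (edgeR adjusted p = 2.57e-05), Hpx, the haem-binding hemopexin, at 4.18 ± 0.37 (edgeR adjusted p = 2.57e-05), and Fgb, the fibrinogen beta chain, at 3.16 ± 0.34 (edgeR adjusted p = 7.99e-05). In IL-6 STAT3KO relative to IL-6, 16 of the 21 fell and 0 rose, among them Fgb at -3.55 ± 0.29 (edgeR adjusted p = 1.12e-05). In IL-6 STAT3KO relative to GFP only Hpx of the 21 was called, at 1.41 ± 0.32 (edgeR adjusted p = 0.0326). DDC against GFP called 5 higher and 2 lower, among them Steap4 at 2.31 ± 0.36 (edgeR adjusted p = 0.00222), Lcn2, a siderophore-binding lipocalin, at 5.05 ± 0.92 (edgeR adjusted p = 0.00477), and Serpina3m, a serine protease inhibitor, at -1.47 ± 0.26 (edgeR adjusted p = 0.00402). DDC STAT3KO against DDC called 0 of the 21.

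Of 10 negative acute phase genes, 4 fell and 1 rose in IL-6 relative to GFP. Serpina6, the corticosteroid-binding globulin, was at -4.53 ± 0.47 (edgeR adjusted p = 7.08e-05) and Ttr, the thyroxine carrier transthyretin, at -2.01 ± 0.34 (edgeR adjusted p = 0.00152), while Trf, transferrin, was higher at 1.58 ± 0.43 (edgeR adjusted p = 0.0175). In IL-6 STAT3KO relative to IL-6, 4 rose and 2 fell, led by Serpina6 at 4.61 ± 0.46 (edgeR adjusted p = 3.29e-05).
Of 20 genes of IL-6 signalling and liver factors, 4 rose and 2 fell in IL-6 relative to GFP. Socs3, a feedback inhibitor of the pathway, was at 4.46 ± 0.40 (edgeR adjusted p = 2.89e-05), and Cebpa, a liver C/EBP factor, was at -1.61 ± 0.33 (edgeR adjusted p = 0.00454). In IL-6 STAT3KO relative to IL-6, 3 rose and 5 fell, with Socs3 at -5.68 ± 0.36 (edgeR adjusted p = 2.16e-06). In DDC relative to GFP, Cebpa, at -1.65 ± 0.38 (edgeR adjusted p = 0.0136), and Cebpb, at -2.83 ± 0.69 (edgeR adjusted p = 0.0166), were the 2 that fell, and 0 rose.

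Relatives and partners of the members moved less uniformly. Of 6 tested family relatives, 3 rose in IL-6 relative to GFP and 4 fell in IL-6 STAT3KO relative to IL-6. Ambp, the precursor of bikunin, to which heavy chains are linked, was at 1.86 ± 0.32 (edgeR adjusted p = 0.0015) in the first and at -1.95 ± 0.28 (edgeR adjusted p = 0.000353) in the second. Itih2, another heavy chain, was at 1.34 ± 0.29 (edgeR adjusted p = 0.00607) and at -1.67 ± 0.26 (edgeR adjusted p = 0.000615), a smaller change than that of Itih3 or Itih4 by its point estimate, which was not tested. Of 8 receptors and partners, Cd14, the co-receptor to which Lbp delivers lipopolysaccharide, was at 7.86 ± 0.82 (edgeR adjusted p = 7.08e-05) in IL-6 relative to GFP and at -6.14 ± 0.61 (edgeR adjusted p = 3.08e-05) in IL-6 STAT3KO relative to IL-6. Cd163, the macrophage receptor for haptoglobin bound to haemoglobin, was at 3.12 ± 0.81 (edgeR adjusted p = 0.015) in IL-6 relative to GFP. Cd14 was also higher in DDC relative to GFP, at 6.59 ± 0.80 (edgeR adjusted p = 0.000698), with the Kupffer cell marker sums given above. Both genes are known macrophage genes, and Kupffer cell markers summed to 50.7 to 123 CPM in IL-6 libraries and 21.1 and 26.4 CPM in GFP libraries; their part in these differences was not tested.

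In the immune cell libraries, with 3817794 to 12945663 counts, the 10 genes took 0.00877% to 0.232% of counts. Those libraries also held hepatocyte RNA, with the 10 hepatocyte markers at a sum of 45.4 to 8541 CPM. For each library, the level that this carry-over would bring was computed from the ratio of each member to those markers in DDC hepatocytes. Macrophages on normal diet were given the same ratio, although Hp and Lbp were lower in GFP than in DDC hepatocytes. For normal diet libraries the carried levels of Hp and Lbp may thus be too high, and their ratios too low, which was not tested. Itih3, Itih4, Orm1, Apcs and Crp stood at no more than 5.00 times the carried level in any of the 12 libraries. Their levels there were at most 64.0, 34.0, 150.3, 49.8 and 7.90 CPM in that order.
Hp went beyond it in neutrophils, at 2603 and 907 CPM, 28.8 and 17.6 times the carried level, and in Ly6C-high monocytes, at 706 and 497 CPM, 238 and 44.4 times that level. In the other 8 immune libraries Hp was at 0.377 to 4.85 times the carried level. Lbp, at 0 to 23.1 CPM, was over 10 times the carried level in 5 libraries: both of Ly6C-high monocytes, both of macrophages on normal diet and replicate 2 of DDC macrophages. Orm2, at 2.36 to 14.5 CPM, was over that mark in 8 of 12 libraries and Orm3, at 0 to 21.2 CPM, in 10 of 12. These ratios have very low carried levels below the line. In DDC hepatocytes Orm2 and Orm3 stood at 0.0327% and 0.008% of the hepatocyte marker sum, against 6.53% for Hp. The highest Orm3 ratio, 494, was 12 counts, at 1.79 CPM over a carried level of 0.00363 CPM. Whether reads of other Orm copies had a part was not tested. The libraries labelled T cells held T cell markers at a sum of 294 and 309 CPM beside monocyte and macrophage markers at 8795 and 11300 CPM, so their label goes against their markers and no value is read as that of T cells.

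**Figure D5:**
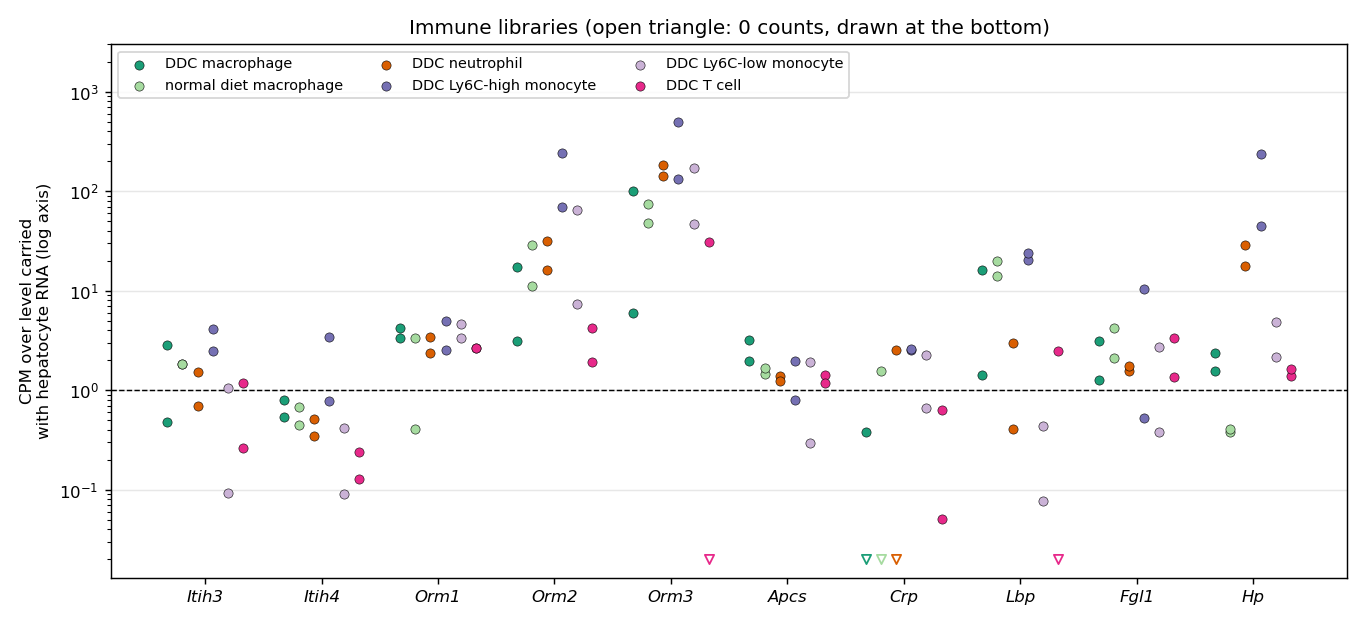
Observed level of each gene in the 12 immune cell libraries over the level carried with hepatocyte RNA, on a log axis; each point is a library, the dashed line marks a ratio of 1 and open triangles at the bottom are libraries with 0 counts. In Ly6C-high monocytes Hp reaches 238, at 706 CPM, and Orm3 reaches 494, at only 1.79 CPM over a carried level of 0.00363 CPM. Itih3, Itih4, Orm1, Apcs and Crp stay at or under 5.00.

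By edgeR 0 members were called in each of 3 immune comparisons, where 0.0252%, 1.67% and 0.731% of 27759 genes tested were called in either direction, in the order given here. DDC against normal macrophages had Hp at 643 and 45.8 CPM in DDC macrophages, against 11.4 and 17.4 CPM in normal macrophages, with a log2 fold change of 4.58 ± 0.91 (edgeR adjusted p = 0.109). The high DDC library, replicate 1, was also the one with 4121 CPM of hepatocyte markers, against 452 CPM in replicate 2. DDC neutrophils against the mean of both DDC monocyte groups had Hp at 2.59 ± 0.65 (edgeR adjusted p = 0.0549). DDC macrophages against those monocytes had Apcs at 3.90 ± 0.94 (edgeR adjusted p = 0.0691) and Hp at 0.24 ± 0.67, and without replicate 1 of DDC macrophages Hp turned to -2.69 (edgeR adjusted p = 0.0434). At an unadjusted p under 0.05 by edgeR the 3 comparisons had 3, 4 and 6 members, and 2935, 3773 and 1694 of the 27759 genes tested. DESeq2 called 1, 2 and 4 members, and 636, 2197 and 763 of all genes. Hp was called higher in 17 of 18 other settings for neutrophils against monocytes and in 14 of 18 for DDC against normal macrophages, and Orm1 in 14 and Apcs in 11 of 18 for macrophages against monocytes. The common biological coefficient of variation was 1 in this table and 0.313 in the hepatocyte table.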

How the data were processed

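The authors deposited raw gene counts in 2 tables, 1 for 13 hepatocyte and 1 for 12 immune cell libraries. The submitters' processing notes name mm10, STAR, HTSeq and DESeq2, without versions, and a strand setting is not stated. Per the labels' protocols, livers were perfused, cells were sorted, RNA was extracted with Trizol and TruSeq libraries were made. Reads were not realigned, so reads shared between near copies follow the authors' counting. The EGFP row entered neither library sizes nor tests, and 0 columns were left without a sample.

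GENCODE M21 (GRCm38) gave symbols and coordinates and named 18626 of 18668 hepatocyte and 51633 of 51912 immune identifiers. Each table was fitted as a whole in R 4.3.3 with edgeR 4.0.16 and limma 3.58.1: TMM scaling, filterByExpr by group, 1 term per group, quasi-likelihood F tests and Benjamini-Hochberg adjustment over all genes tested (14339 hepatocyte genes with 8 residual degrees of freedom, 27759 immune genes with 6). A gene was called at an adjusted p under 0.05. Every adjusted p in the text is from edgeR unless DESeq2 is named. The spread is shared between groups because several have 2 libraries. Levels are CPM on TMM-scaled sizes, and each SE is the size of the log2 fold change over the square root of F. The code was tested on simulated counts.

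The members, the lists of other genes, the rules and the alternatives were chosen with earlier results of these data known. All members are named whatever their result, with up to 4 genes of each other list with the smallest adjusted p and the 5 genes most like the members' mean among those at 20 CPM or more, besides Stat3 and Il6. The alternatives were median-of-ratios factors, library totals, no filter, the replicate number as a block, the compared groups alone, DESeq2 1.42.0, each library left out, replicate 3 of IL-6 and of DDC STAT3KO both left out, and the Orm genes summed. Levels per longest coding transcript were added after seeing the data.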

Additional observations from a re-analysis of the deposited data

Results flagged for a closer look

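The difference between hepatocytes with and without Stat3 was set under the IL-6 plasmid against the same difference under DDC, and it differed by the interaction test of edgeR for 8 of the 10 genes. The difference under IL-6 minus that under DDC was -3.48 ± 0.41 (edgeR adjusted p = 0.000523) for Itih3, -2.96 ± 0.54 (edgeR adjusted p = 0.00656) for Itih4, -2.81 ± 0.59 (edgeR adjusted p = 0.0131) for Orm1 and -5.54 ± 1.08 (edgeR adjusted p = 0.00906) for Orm2 on the log2 scale. For Orm3 it was -3.38 ± 0.53 (edgeR adjusted p = 0.0029), for Apcs -3.55 ± 0.66 (edgeR adjusted p = 0.00694), for Lbp -1.79 ± 0.32 (edgeR adjusted p = 0.00609) and for Hp -3.30 ± 0.49 (edgeR adjusted p = 0.00192). Itih3, Orm3, Lbp and Hp were still called without replicate 2 of DDC, and the other 4 were not.

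Replicate 3 of the IL-6 group held 7795 counts of the EGFP transgene, a row outside the gene comparisons, although its labels name no GFP vector or plasmid. The other IL-6 libraries held 117 and 93 counts, and the libraries of the GFP plasmid group held 34 and 35 counts.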

How the results depend on the processing

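Of 1827 values of single genes in hepatocytes under other settings, 1727 kept their direction and side of the threshold, 36 lost the call, 28 gained it, 36 that were never called changed sign and 0 called values reversed. The number of genes called moved by over 1.5 times, or to or from 0, as follows. IL-6 STAT3KO against GFP had 0 in the report, 2 with only the groups compared, 2 with DESeq2 and 1 with replicate 3 of IL-6 and of DDC STAT3KO out. DDC against GFP had 2 in the report and 4 with only the groups compared. DDC STAT3KO against GFP had 2 in the report, 1 with no filter, 0 with only the groups compared and 6 with replicate 3 of IL-6 and of DDC STAT3KO out. IL-6 STAT3KO against DDC STAT3KO had 0 in the report, 1 with DESeq2 and 1 with replicate 3 of IL-6 and of DDC STAT3KO out. DDC against normal macrophages had 0 in the report and 1 with no filter, with the replicate block and with DESeq2. Neutrophils against monocytes had 0 in the report, 1 with median-of-ratios factors, library totals, no filter or the replicate block, and 2 with DESeq2. Macrophages against monocytes had 0 in the report, 2 with no filter, 4 with only the groups compared and 4 with DESeq2. The cause was not tested. Smaller moves were to 3 in DDC against GFP with DESeq2, library totals or both replicates 3 out, to 10 in IL-6 against DDC with DESeq2 or both replicates 3 out, and to 9 in IL-6 STAT3KO against IL-6 with library totals.

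With 1 library left out at a time, the count ran from 9 to 9 in IL-6 against GFP, 9 to 10 in IL-6 STAT3KO against IL-6, 0 to 1 in IL-6 STAT3KO against GFP, 0 to 3 in DDC against GFP, 0 to 0 in DDC STAT3KO against DDC, 0 to 5 in DDC STAT3KO against GFP, 8 to 10 in IL-6 against DDC, 0 to 1 in IL-6 STAT3KO against DDC STAT3KO and 4 to 9 in the interaction. In the immune cells it ran from 0 to 2 in DDC against normal macrophages, 1 to 1 in neutrophils against monocytes and 1 to 4 in macrophages against monocytes, where Hp, at 0.24 in the report, reversed to -2.69 without replicate 1 of DDC macrophages and stood at 1.11 without replicate 2.

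Whether replicate numbers pair the samples cannot be settled here, since deviations from the mean of 2 or 3 libraries must sum to 0. Over 23 pairs of same-numbered libraries, the correlation of such deviations ran from -0.187 to 0.29, with 7 over 0.1. The median was 0.027, against -0.0315 over pairs with other numbers. With the replicate number as a block the hepatocyte counts were 9, 10, 0, 2, 0, 2, 9, 0 and 8 in the order above, as without it, and the immune counts were 1, 1 and 0. Per longest coding transcript, a length chosen after seeing the data, 0 of the 10 genes changed place in the order of IL-6, 4 in IL-6 STAT3KO, 6 in DDC, 6 in DDC STAT3KO and 2 in GFP. Groups held 2 or 3 libraries, and the precision of each value is limited by that number.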
